A study of Mus musculus with 9 samples.

Results

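The genes described here are Lpl (lipoprotein lipase, LPL), Angptl4 (a secreted inhibitor of LPL), Cebpa, Cebpb and Cebpd (the C/EBP factors), Cd36 (a fatty acid uptake receptor), Fabp4 (a fatty acid carrier of fat cells), Adipoq (the hormone adiponectin) and Cfd (adipsin, complement factor D). They were selected by the gene symbol that the array table gives to a probe. Of the 9 symbols, 8 had a probe, 1 each, among 17914 genes with a probe in the table. Cebpd was not analysed here. The 9 genes were put together with earlier results of these arrays in view. Which value prompted the choice is not recorded, so every value of these genes is a description. No p-value of a comparison is printed for them, and counts of members past a threshold are read as description only.

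LPL splits the triglycerides of circulating lipoproteins into fatty acids that cells take up and burn or store. Fat cells and osteoblasts arise from a shared mesenchymal precursor, and RUNX2, the transcription factor that drives osteoblast formation, is known to hold back fat cell formation. In that programme C/EBP beta and C/EBP delta act early and switch on C/EBP alpha and the nuclear receptor PPAR gamma. These in turn switch on late genes of the fat cell such as Fabp4, Cd36, Adipoq and Cfd.

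The cells were primary osteoblasts taken from the calvaria (skull roof bones) of newborn mice, and their messenger RNA was read on 9 Illumina mouse bead arrays. All cells, controls included, carried a lentivirus that expresses RUNX2 when doxycycline (dox) is given, and all were grown without phenol red in serum stripped with charcoal to remove steroids, at 20%. The treatments lasted 48 h: 2 arrays had vehicle, 2 had 500 ng/ml dox, 3 had 10 nM of the oestrogen oestradiol (E2), and 2 had both agents at these doses. Slide 1 held the 4 arrays without E2 and slide 2 the 5 arrays with it, so each dox comparison lies within a slide, whereas E2 and slide cannot be told apart. Whether replicates were separate cultures or animals is not stated in the labels, so p-values below measure array-to-array spread alone, and that may be technical. Median unscaled signals were 132 to 150 on slide 1 and 158 to 172 on slide 2, and 11554 to 12206 of 25697 probes per array were above background (detection p under 0.05). Of the osteoblast markers 7 of 10 with a probe were above background on at least 2 arrays, among them Col1a1, Sp7 and Alpl. Ibsp, Dmp1 and Runx2 were below background on all 9 arrays.

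Only part of the fat cell programme could be read in these cells. Lpl (ILMN_2692723, chromosome 8), Angptl4 (ILMN_2759365, chromosome 17) and Cebpb (ILMN_2756435, chromosome 2) were above background on 9 of 9 arrays. Adipoq (ILMN_2738082, chromosome 16), Cfd (ILMN_2835423, chromosome 10), Fabp4 (ILMN_2615947, chromosome 3) and Cd36 (ILMN_1232470, chromosome 5) were below background on 9 of 9 arrays. Cebpa (ILMN_1247147, chromosome 7) was above background on 1 array. The 3 readable genes passed the filter on dim probes (above background on at least 2 arrays), and each passed it in all 4 groups.

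The promoters printed here show the DNA around the start of a gene of each kind. Cebpb is a member read on every array and Adipoq one below background on every array. Each sequence runs from 250 bases before to 50 bases after the start of the gene, on the plus strand of GRCm38.p6, from RefSeq. Capitals mark every match, on either strand, to the motifs searched.
Cebpb, chr2:167688665-167688964: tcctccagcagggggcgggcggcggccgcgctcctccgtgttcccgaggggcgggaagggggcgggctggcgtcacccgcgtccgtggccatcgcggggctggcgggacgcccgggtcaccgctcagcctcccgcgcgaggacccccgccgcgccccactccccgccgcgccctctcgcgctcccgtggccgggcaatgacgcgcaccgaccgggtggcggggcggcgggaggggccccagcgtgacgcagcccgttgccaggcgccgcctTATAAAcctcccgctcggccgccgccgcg
Adipoq, chr16:23146286-23146585: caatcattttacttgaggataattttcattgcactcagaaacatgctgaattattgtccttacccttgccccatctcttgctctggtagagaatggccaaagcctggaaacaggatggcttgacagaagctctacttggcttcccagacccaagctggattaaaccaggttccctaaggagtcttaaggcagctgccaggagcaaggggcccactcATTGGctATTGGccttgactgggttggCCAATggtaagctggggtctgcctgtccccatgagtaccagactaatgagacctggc
The Cebpb window held 1 TATA motif (TATAAA, in 13.6% of all 32841 promoter windows). Its first base was at position 22, after the start of the gene and not before it. The Adipoq window held 3 CCAAT motifs (CCAAT, in 37.4%), at -34, -27 and -7 from the start. Neither window held the RUNX motif TGTGGT (16.8% of windows), the C/EBP motifs TTGCGCAA (0.183%) and TTGCGNAA (0.798%, which includes the former), the PPAR motif (AGGTCA repeated in the same direction after 1 base, 0.0396%) or the oestrogen receptor motif (GGTCA, any 3 bases, TGACC, 0.0700%). A missing match says only that these letters are not in the window. The RefSeq table held a promoter for 5 of the 9 genes.

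**Figure D1:**
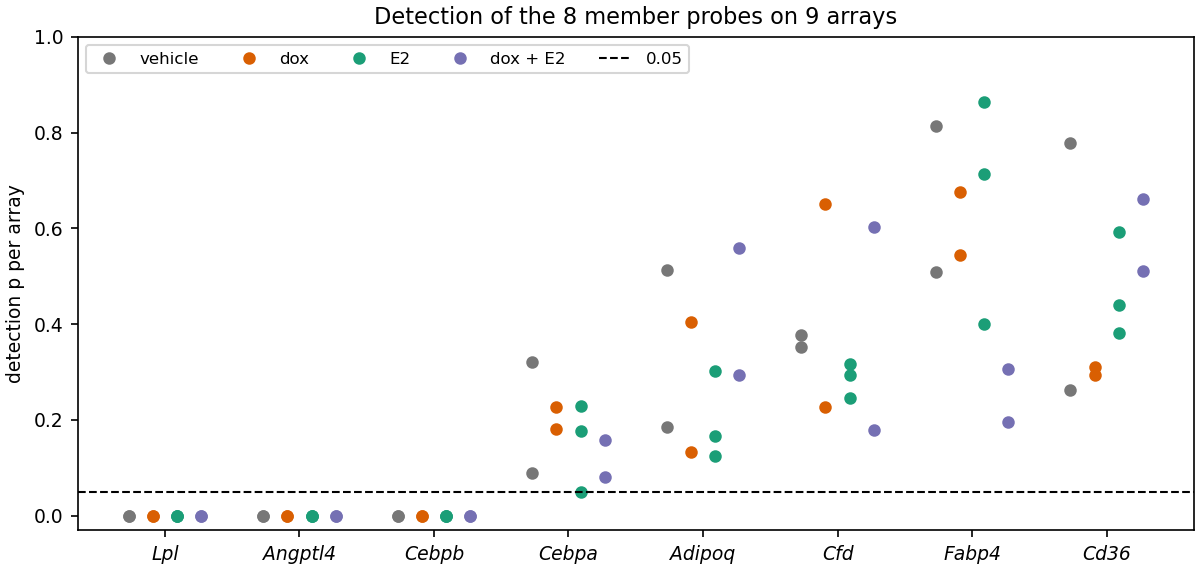
Detection p-value (vertical axis, no unit) of the 8 member probes on each of the 9 arrays, coloured by group, with a dashed line at 0.05. Lpl, Angptl4 and Cebpb lie at 0 on all arrays, Cebpa falls under the line on 1 E2 array, and Adipoq, Cfd, Fabp4 and Cd36 stay above it.

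The 5 genes at or near background give no level, and their arrays are shown by detection p-value alone. Cebpa, the factor that with PPAR gamma commits a cell to the fat lineage, had a detection p of 0.322 and 0.0902 with vehicle, 0.228 and 0.18 with dox, 0.0489, 0.229 and 0.177 with E2, and 0.0802 and 0.158 with dox plus E2. The E2 array at 0.0489 was just inside the limit and the dox plus E2 array at 0.0802 the next outside it. The detection p ranged from 0.125 to 0.559 for Adipoq, from 0.179 to 0.65 for Cfd, from 0.195 to 0.865 for Fabp4 and from 0.262 to 0.778 for Cd36. Unscaled signals of these 5 probes lay between 104 and 180. With the groups below background no fold is given.

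The wider set of mature fat cell markers was also mostly below background. Of 11 with a probe, which include the members Adipoq, Cfd and Fabp4, 2 were above background on at least 2 arrays: Plin4, a lipid droplet coat protein, on 9 arrays and Lipe, the hormone-sensitive lipase, on 3. Cidea was above background on 1 array, and Plin1, Cidec, Lep, Retn and the glucose transporter gene Slc2a4 on 0. The members Lpl, Cd36 and Fabp4 are also known from macrophages, Cd36 and Fabp4 from blood vessel cells, and Lpl and Cd36 from heart muscle. Of 7 macrophage markers with a probe, only Lyz2 was above background on at least 2 arrays (6 of 9), while Ptprc, Csf1r, Adgre1, Cd68 and Tyrobp were below background on all 9. Of 6 blood vessel markers, Tek was above background on 6 arrays and Kdr on 2, and Pecam1, Cdh5, Emcn and Tie1 on 0.

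Lpl was the member that differed between arrays. Levels here and below are background-corrected, quantile-normalized signals on the log2 scale. Lpl stood at 8.74 and 8.30 in the vehicle arrays, 8.77 and 8.28 in the dox arrays, 7.77, 7.94 and 7.42 in the E2 arrays and 7.16 and 7.48 in the dox plus E2 arrays. Every array of slide 1 was higher than every array of slide 2, a split that was not counted over all genes. The group means were 8.52 ± 0.31 (SD, n = 2) with vehicle, 8.53 ± 0.34 (n = 2) with dox, 7.71 ± 0.27 (n = 3) with E2 and 7.32 ± 0.23 (n = 2) with dox plus E2. Vehicle and dox, the top of this order, differed by less than the spread within each, and the 7.48 of a dox plus E2 array lay above the lowest E2 array.

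**Figure D2:**
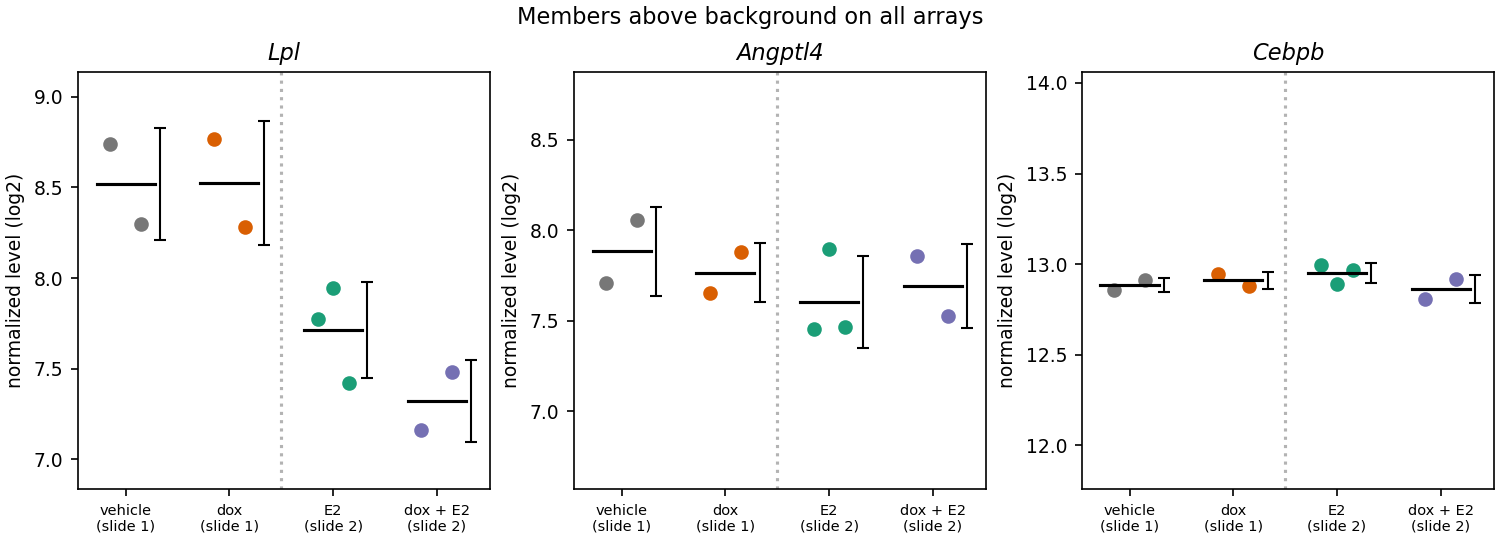
Normalized log2 level (vertical axis) of Lpl, Angptl4 and Cebpb by group. Points are arrays, horizontal lines group means and bars ± 1 SD, the dotted line separates the slides, and each panel spans the same log2 range. Lpl runs from 7.16 to 8.77, with all slide 2 arrays under all slide 1 arrays, while Cebpb stays between 12.81 and 13.00.

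Scaling between arrays matters to this pattern. Unscaled signals of Lpl were 546 and 388 with vehicle, 474 and 344 with dox, 393, 384 and 292 with E2 and 266 and 321 with dox plus E2, so before scaling 1 E2 array lay above the lower vehicle array and 2 above the lower dox array. In the authors' scaled table the values were 540 and 428 with vehicle, 549 and 425 with dox, 332, 359 and 285 with E2 and 256 and 291 with dox plus E2. There the slides did not overlap.

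The E2 and vehicle groups were compared for cells without dox, and each value below is of E2 and slide together. Lpl was 1.75-fold lower with E2 than with vehicle, a fall by 0.81 ± 0.18 on the log2 scale (SE, n = 3 and 2, 95% interval -1.17 to -0.44). Angptl4 was at -0.28 ± 0.17 (interval -0.63 to 0.07) and Cebpb at 0.07 ± 0.07 (interval -0.07 to 0.20). By limma with Benjamini-Hochberg adjustment over 9490 genes, 1 of the 3 readable members, Lpl, passed an adjusted p of 0.05 and 0 rose; 1.45% of all genes passed, 0.832% as lower. The choice of members may rest on this comparison, so nothing is read from the count. The E2 arrays of Lpl did not overlap the vehicle arrays and were lower, as for 19.6% of all genes. Counting Lpl itself, 39 genes fell at least as far. Without vehicle replicate 1 the difference was -0.59 and without E2 replicate 3 it was -0.66, and in both cases Lpl no longer passed. It also missed the threshold without the detection filter, without an intensity trend in the variance, and with same-numbered replicates fitted as a block. These are bulk cultures, in which fewer cells of a type and less RNA per cell cannot be told apart.

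Among dox-treated cells, dox plus E2 against dox, the gap was of the same direction. Lpl was 2.31-fold lower with dox plus E2, a fall by 1.21 ± 0.19 on the log2 scale (n = 2 and 2, interval -1.60 to -0.81). Angptl4 was at -0.07 ± 0.18 (interval -0.46 to 0.31) and Cebpb at -0.05 ± 0.07 (interval -0.20 to 0.10). Again 1 of 3 members passed, against 0.232% of all genes, 0.211% as lower. Arrays did not overlap, with the first group lower, for Lpl as for 20.4% of genes. Counting Lpl itself, 14 genes fell at least as far. Without dox replicate 1 the Lpl difference was -0.96 and without dox plus E2 replicate 2 it was -1.05, and in both cases Lpl no longer passed, nor did it without an intensity trend. Lpl also missed the threshold with same-numbered replicates fitted as a block. The comparisons of E2 with vehicle and of dox plus E2 with dox share no arrays but share the same pair of slides.

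**Figure D3:**
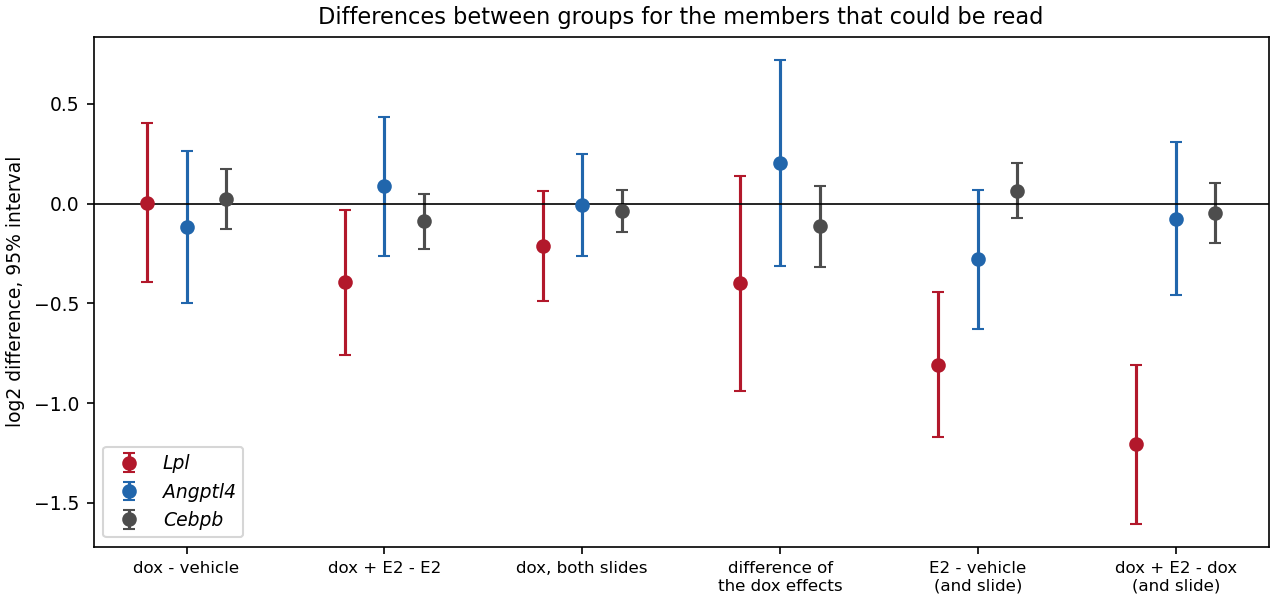
Log2 difference (vertical axis) with 95% interval from limma for Lpl, Angptl4 and Cebpb in 6 comparisons. Lpl lies at -0.81 and -1.21 in the comparisons where E2 and slide cannot be told apart, and the intervals of Angptl4 and Cebpb include 0 throughout.

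Dox against vehicle, within slide 1, compared cells with and without dox in the absence of E2. No array had dox without the virus, so effects of dox itself and of RUNX2 cannot be told apart in any dox comparison. Lpl differed by 0.01 ± 0.19 on the log2 scale (n = 2 and 2, interval -0.39 to 0.40), Angptl4 by -0.12 ± 0.18 (interval -0.50 to 0.26) and Cebpb by 0.03 ± 0.07 (interval -0.13 to 0.18). Of these 3 members 0 passed with limma and 0 had an unadjusted p under 0.05, and 0.0316% of all genes passed. For Lpl the interval leaves room for a change of about the size of the spread between its replicates. Leaving out single arrays moved its difference between -0.24, without dox replicate 1, and 0.25, without dox replicate 2. Same-numbered arrays lay close for Lpl, at 8.74 with vehicle and 8.77 with dox in replicate 1. In replicate 2 they were at 8.30 and 8.28.

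With E2 present, dox plus E2 against E2 within slide 2, Lpl was at -0.39 ± 0.18 (n = 2 and 3, interval -0.76 to -0.03), a 1.31-fold lower mean, with overlapping arrays. Angptl4 was at 0.09 ± 0.17 (interval -0.26 to 0.43) and Cebpb at -0.09 ± 0.07 (interval -0.23 to 0.05). Again 0 of 3 members passed with limma, and 0.0738% of all genes did. At an unadjusted p under 0.05 the count was 1 member (Lpl), beside 6.23% of all genes. Leaving out single arrays moved the Lpl difference between -0.55 and -0.23, the latter without dox plus E2 replicate 2.

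Dox was also compared over both slides, 4 arrays with it and 5 without it, in a fit that takes slide into account. Lpl was at -0.21 ± 0.13 (interval -0.49 to 0.06), Angptl4 at -0.01 ± 0.12 (interval -0.26 to 0.25) and Cebpb at -0.04 ± 0.05 (interval -0.14 to 0.07). Here 0 of 3 members passed and 0 had an unadjusted p under 0.05, while 0.116% of genes passed. In the same comparison 3 of 7 tested osteoblast markers rose, 0 fell and 4 did not pass. Bglap2, an osteocalcin gene with near-identical copies and so of uncertain identity, was among the 3. It was below background on every array without dox and passed the filter through the dox arrays alone, so its call is not read. Sp7, which codes for the transcription factor osterix, rose by 0.68 ± 0.08 (adjusted p = 2.64e-05). Alpl, a phosphatase gene of bone mineralisation, rose by 0.85 ± 0.13 (adjusted p = 0.000727). Col1a1, the main collagen of bone, was at -0.13 ± 0.04 (adjusted p = 0.707). The RUNX2 transcript could not be read, as both Runx2 probes were below background.

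The title of the series asks if oestrogens oppose RUNX2. Subtracting the dox effect without E2 from that with E2 gave -0.40 ± 0.26 for Lpl (interval -0.94 to 0.14), 0.20 ± 0.25 for Angptl4 (interval -0.31 to 0.72) and -0.11 ± 0.10 for Cebpb (interval -0.32 to 0.09). None of the 3 members passed (0 with limma, 0 at an unadjusted p under 0.05; 0% of all genes passed, 652 at an unadjusted p under 0.05). An effect of slide on the response to dox cannot be told apart from E2 here. The Lpl difference ran from -0.16, without dox replicate 1, to -0.64, without dox replicate 2.

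Angptl4 and Cebpb varied little between groups. Angptl4 stood at 7.71 and 8.06 with vehicle, 7.65 and 7.88 with dox, 7.45, 7.90 and 7.47 with E2 and 7.86 and 7.53 with dox plus E2. Its replicates spread as widely as its groups, and the arrays of all 4 groups overlapped. Cebpb stood at 12.86 and 12.91 with vehicle, 12.95 and 12.88 with dox, 13.00, 12.89 and 12.97 with E2 and 12.81 and 12.92 with dox plus E2. All pairs of groups compared overlapped for this gene too. Angptl4 is known to respond to PPAR factors, low oxygen and glucocorticoids. Of 7 tested low-oxygen genes 0 passed in any comparison, and of 8 tested glucocorticoid-responsive genes 1, the phosphatase gene Dusp1, was lower with E2 than with vehicle (-0.44 ± 0.09, adjusted p = 0.00959) and none passed in the others. Dusp1 missed the threshold without either vehicle array, and without an intensity trend (adjusted p = 0.258).

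The rest of the lipid and fat cell programme was followed through 5 lists of 88 genes that leave out the members: transcription factors, preadipocyte genes and inhibitors, partners of LPL and lipoprotein receptors, uptake and storage genes, and PPAR-responsive oxidation genes. Of these 65 were tested. With dox alone, dox with E2, dox over both slides and in the difference of the dox effects, 0 of 65 passed with limma, and 9, 4, 6 and 6 had an unadjusted p under 0.05, beside 6.77%, 6.23%, 5.85% and 6.87% of all genes. For E2 against vehicle 2 of 65 fell and 0 rose (3.08%, beside 1.45% of all genes), with a median difference of 0.00, beside -0.02 over all genes. For dox plus E2 against dox 1 fell and 0 rose (1.54%, beside 0.232%), with a median of 0.01, beside 0.00.

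Fabp3 (ILMN_2887630, chromosome 4), the fatty acid carrier of heart and skeletal muscle, was the gene of these lists that fell with dox plus E2 against dox. Its levels were 7.71 and 7.96 with vehicle, 8.26 and 7.94 with dox, 6.89, 7.30 and 7.36 with E2 and 7.001 and 6.93 with dox plus E2. As for Lpl, every slide 2 array was lower than every slide 1 array. The share of all genes with this full split was not counted. Arrays were lower without overlap for 19.6% of genes in E2 against vehicle and 20.4% in dox plus E2 against dox. The fall was 2.19-fold (-1.13 ± 0.19, n = 2 and 2, adjusted p = 0.00221), and E2 against vehicle gave -0.65 ± 0.17 (adjusted p = 0.0524). Without dox replicate 1 (-0.97) or dox plus E2 replicate 3 (-1.09) the call was lost, as it was without an intensity trend (adjusted p = 0.114).

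Srebf1 (ILMN_2792089, chromosome 11), which codes for a transcription factor of fatty acid synthesis, fell 1.60-fold with E2 against vehicle (-0.68 ± 0.16, n = 3 and 2, adjusted p = 0.0349). Its levels were 7.75 and 7.76 with vehicle, 7.29 and 7.09 with dox, 6.99, 6.97 and 7.28 with E2 and 7.25 and 7.30 with dox plus E2. Here the dox arrays of slide 1 lay with slide 2, unlike Lpl, and the vehicle arrays alone were high. Dox against vehicle gave -0.57 ± 0.18 for Srebf1 (adjusted p = 0.552). The call was lost without either vehicle array (-0.68 and -0.67), E2 replicate 1 (adjusted p = 0.0944) or E2 replicate 2 (0.114). It was also lost without the detection filter (adjusted p = 0.120), without an intensity trend (0.130) and with same-numbered replicates fitted as a block (0.0673).

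Klf2 (ILMN_2604029, chromosome 8), an inhibitor of PPAR gamma expression in preadipocytes, fell 1.33-fold with E2 against vehicle (-0.41 ± 0.10, adjusted p = 0.0443). Its levels were 11.18 and 11.30 with vehicle, 11.29 and 10.78 with dox, between 10.80 and 10.86 with E2 and 10.80 and 10.86 with dox plus E2. Dox replicate 2 lay below the slide 2 arrays. Klf2 missed the threshold when any 1 of 7 arrays was left out. These were vehicle replicate 1 (-0.47) or 2 (-0.35), and dox plus E2 replicate 2 or 3 (-0.41 each). E2 replicate 1 (adjusted p = 0.0851), 2 (0.122) or 3 (0.0609) made up the rest. The call was also lost without the detection filter (adjusted p = 0.0979), with a detection p limit of 0.01 (0.0537) and with probes averaged (0.0715). Without an intensity trend (0.303) or with same-numbered replicates fitted as a block (0.119) it was lost too.

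**Figure D4:**
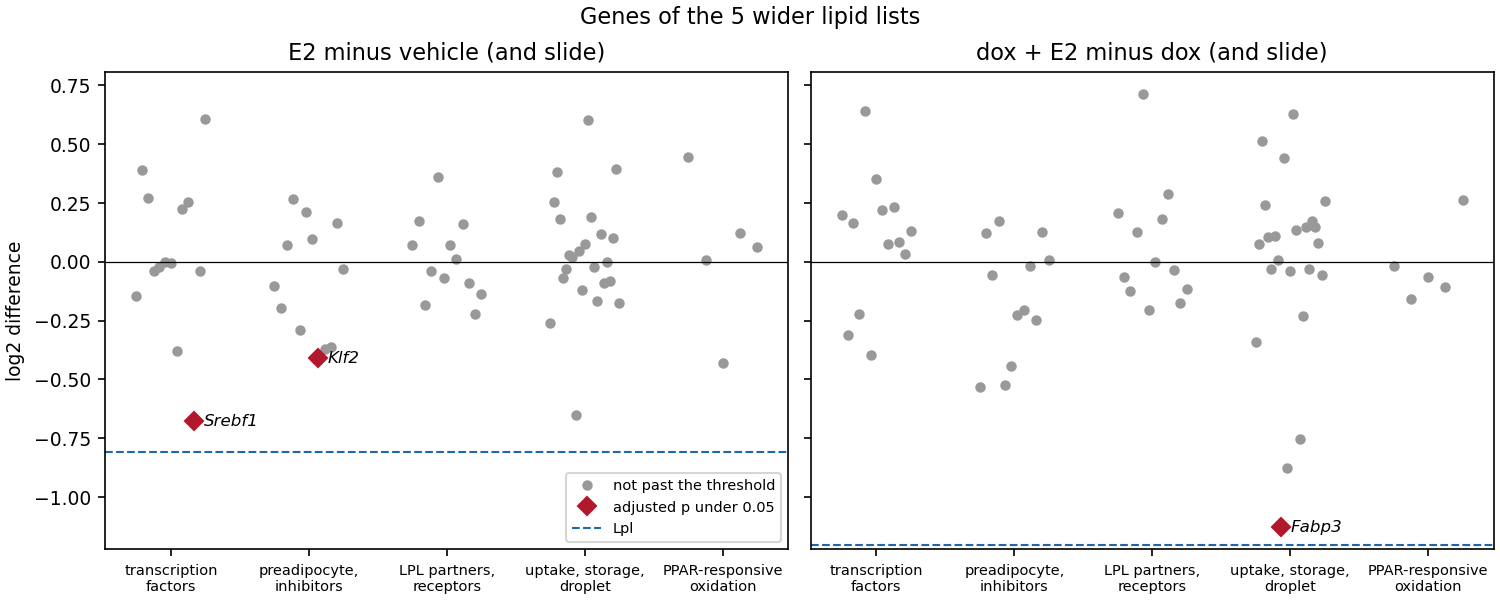
Log2 difference (vertical axis) of the 65 tested genes of the wider lists, by list, for E2 minus vehicle and dox plus E2 minus dox, where E2 and slide cannot be told apart. Diamonds passed an adjusted p of 0.05 and the dashed line gives Lpl. Srebf1 and Klf2 fell in the former and Fabp3 in the latter, and most genes lie near 0.

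Several genes of these lists are named for their role, after their values were seen. Pparg, the gene of PPAR gamma, was above background, at 9.76 and 9.58 with vehicle, 9.76 and 9.70 with dox, 9.97, 9.87 and 9.84 with E2 and 9.82 and 9.78 with dox plus E2. It differed by 0.23 ± 0.10 for E2 against vehicle (adjusted p = 0.25) and by 0.06 ± 0.10 for dox against vehicle (adjusted p = 0.94). Lmf1, the maturation factor that folds LPL in the endoplasmic reticulum, differed by 0.07 ± 0.11 for E2 against vehicle (adjusted p = 0.791) and by 0.00 ± 0.12 for dox plus E2 against dox (adjusted p = 0.999). Gpihbp1, which carries LPL across the blood vessel wall, was below background throughout (detection p at least 0.115). Fasn, the fatty acid synthase gene, was at -0.88 ± 0.25 (adjusted p = 0.148) for dox plus E2 against dox. Its dox mean alone was high, at 6.61, beside 5.93 with vehicle, 5.81 with E2 and 5.73 with dox plus E2. With dox plus E2 it was above background on 1 of 2 arrays. Dlk1, a preadipocyte gene that holds back fat cell formation, was at -0.55 ± 0.15 for dox plus E2 against E2 (adjusted p = 0.345).

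Lpl is also a gene of heart and slow muscle, and markers of these tissues moved with it between the slides. Of 6 such markers with a probe, 4 (Myl2, Myl3, Actc1 and Myh6, all of the contractile apparatus) were above background on at least 2 arrays, Tnni3 on 1 and Myh7 on 0. All 4 fell in both E2 comparisons, beside 0.832% of all genes for E2 against vehicle and 0.211% for dox plus E2 against dox. Actc1 and Myh6 passed the filter on dim probes through slide 1, where they were high, so nothing is read from the count. The summed linear level of the detected markers was 1352 to 1572 with vehicle, 1292 to 2073 with dox, 148 to 381 with E2 and 82.6 to 115 with dox plus E2.

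Myl2, a light chain of heart ventricle and slow muscle myosin, had levels of 9.69 and 9.47 with vehicle, 10.04 and 9.41 with dox, 6.19, 6.50 and 7.65 with E2 and 5.41 and 5.57 with dox plus E2. It fell by 2.80 ± 0.26 with E2 against vehicle (adjusted p = 6.63e-07). With dox plus E2, where it was not well above background on either array, it was at least 16.4-fold lower than with dox (adjusted p = 1.07e-09), taking the bound from the dimmest probes above background. Actc1 and Myh6 were each above background on the 4 arrays of slide 1, on 1 of the 3 E2 arrays and on 0 dox plus E2 arrays. Within slide 1 Myl2 and Lpl ranked the 4 arrays alike: dox replicate 1, vehicle replicate 1, vehicle replicate 2, then dox replicate 2. Within slide 2 the order of arrays differed. E2 replicate 3 had the highest Myl2 of that slide, 7.65, and the lowest Lpl of the E2 arrays, 7.42. The dox plus E2 mean was below the E2 mean for both genes, at 5.49 and 6.78 for Myl2 and 7.32 and 7.71 for Lpl. The part of these cells in the Lpl difference was not tested.

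Immediate early genes, which answer serum and handling within minutes, also moved with the slides. Of 8 tested, 7 fell and 0 rose with E2 against vehicle, and 3 fell and 0 rose with dox plus E2 against dox. Among all genes 0.832% and 0.211% fell in these comparisons. Fos stood at 10.06 and 10.23 with vehicle, 10.41 and 7.52 with dox, 7.27, 7.12 and 7.18 with E2 and 7.32 and 7.33 with dox plus E2. Dox replicate 2 had Fos near the level of slide 2. Its Lpl, 8.28, was the lowest of slide 1 and above every slide 2 array. Dox replicate 1 had the highest Fos and the highest Lpl, 8.77, of the 9 arrays. Between the vehicle arrays the order was opposite, with Lpl at 8.74 in replicate 1 and 8.30 in replicate 2. The part of these genes in the Lpl difference was not tested. The 2 detected mature fat cell markers summed to 435 to 438 with vehicle, 334 to 416 with dox, 291 to 356 with E2 and 343 to 386 with dox plus E2. The detected macrophage marker ranged from 32.4 to 48.2, 26.3 to 39.5, 35.7 to 58.3 and 26.0 to 61.4 in the same order, with overlap of all groups. The 2 detected blood vessel markers summed to 39.3 to 56.9, 54.0 to 87.5, 50.9 to 85.6 and 68.6 to 81.0. The 7 detected osteoblast markers summed to 53670 to 55536 with vehicle and 51976 to 54142 with dox. With E2 they summed to 50892 to 52798, and with dox plus E2 to 48442 to 49999. These sums were lower on the E2 arrays than in the matching group of slide 1. Such sums weigh bright genes like Col1a1 most. Gene by gene, 4 of the 7 were higher and 3 lower with E2 against vehicle. For dox plus E2 against dox 5 were higher and 2 lower, and 0 passed in either comparison. The part of these cells in the Lpl difference was not tested either.

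**Figure D5:**
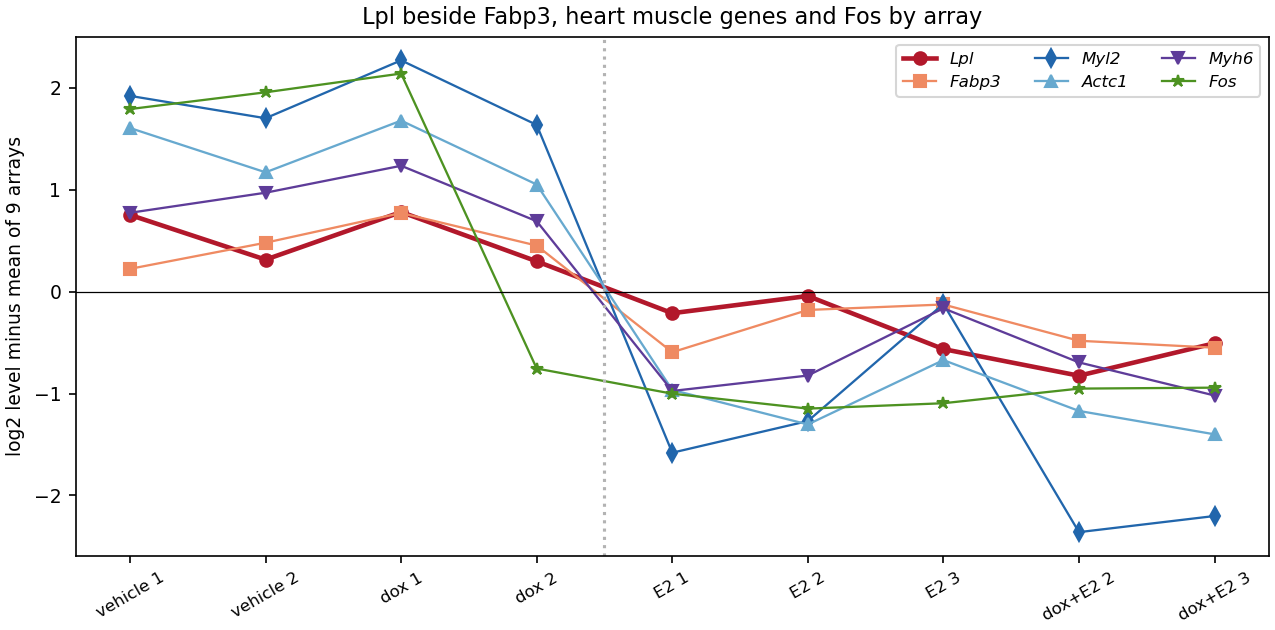
Log2 level minus the gene's mean over the 9 arrays (vertical axis) for Lpl, Fabp3, the heart muscle genes Myl2, Actc1 and Myh6, and Fos on each array, with a dotted line between the slides. Lines join the points of a gene and show no order of arrays. All 6 genes are higher on vehicle and dox replicate 1 arrays than on slide 2, and Fos alone is low on dox replicate 2.

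The genes most like Lpl over the 9 arrays were ranked by Pearson's r of log2 levels among 1187 genes with an SD of at least 0.3. The first 5 were Pknox2 (r = 0.939), a homeobox transcription factor gene, LOC666979 (0.930), Tnnc1 (0.923), the troponin C of heart and slow muscle, Pidd1 (0.915), a death domain protein gene, and BC053749 (0.913). All arrays share the slide difference, and after each slide's mean was taken off r was 0.686 for Pknox2, 0.662 for LOC666979, 0.633 for Tnnc1, 0.644 for Pidd1 and 0.744 for BC053749. Fabp3 had r = 0.836 with Lpl, and 0.162 after the slide means were taken off. Myl2 had 0.883 and 0.339, and Fos 0.813 and 0.323.

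Lpl had r = 0.274 with Angptl4 and 0.0355 with Cebpb. After the slide means were taken off r was -0.306 with Angptl4 and 0.386 with Cebpb. The genes most like Cebpb were 2810021J22Rik (r = 0.885) and Bbof1 (0.871), and those most like Angptl4 were Nars2 (0.838), the mitochondrial asparaginyl-tRNA synthetase gene, and Wdhd1 (0.820), a DNA replication factor gene. Of the 9 arrays, 2810021J22Rik was above background on 8, Bbof1 on 3, Nars2 on 3 and Wdhd1 on 4, so the last 3 were at background on most arrays. These values describe 9 arrays of 4 groups and carry no p-value.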

How the data were processed

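Per the file headers, the authors deposited for each array a non-normalized intensity signal and a detection p-value per probe, and a table of scaled intensity, which equals quantile-normalized signals within 0.512%. Per the submitters' processing notes GenomeStudio 2011.1 was used. The build behind the array's annotation is not given in the sources. The array table's probe symbols were updated through the RefSeq GRCm38.p6 gene table: 20733 of 25697 were current, 3872 were renamed and 1092 kept.

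Signals were background-corrected and quantile-normalized with neqc (limma 3.58.1, R 4.3.3, offset 16), and log2 was computed here from the deposited intensity. The offset shrinks changes of dim probes, and quantile normalization would hide a change of most genes in 1 direction. A probe was kept if at least 2 arrays gave it a detection p below 0.05 (12912 probes), and the brightest probe stood for a gene (9490 genes). Fits with limma over the 9 arrays gave 6 comparisons, two-sided, with Benjamini-Hochberg adjustment over all genes, after the fit was tested on simulated data. The number of arrays limits the precision. The members and lists were chosen with earlier results of these data known. Named are the members, up to 4 genes per wider list past the threshold, the genes most like each member, and marker and reference genes; others are marked in the text. Alternatives were another scaling, offset, detection filter, probe summary, variance trend, a replicate block and leaving out each array. Over all genes, same-numbered arrays of a slide did not deviate together, so the numbers were taken as names. For Lpl on slide 1, replicate 1 was above replicate 2 in both groups. On slide 2 its replicate 2 was above replicate 3 with E2 and below it with dox plus E2. Figures used Python 3.11.15 and matplotlib 3.10.9.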

Additional observations from a re-analysis of the deposited data

How the results depend on the processing

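For E2 against vehicle, 138 genes passed as reported, 68 without a detection filter, 91 when the probes of a gene were averaged, 0 without an intensity trend (1484 had an unadjusted p under 0.05 in the fit with limma as reported), 69 with a replicate block, and 20 to 234 with single arrays left out. Of the readable members 1 (Lpl) passed as reported, and 0 without the filter, without the trend or with the replicate block, and 0 to 1 with single arrays left out. Of the wider lists 2 genes passed as reported, 1 with a detection p limit of 0.01 or the mean of probes, 0 without the filter, without the trend or with the block, and 0 to 3 with arrays left out. For dox plus E2 against dox, 22 genes passed as reported, 6 without the trend, 12 with the block and 10 to 74 with arrays left out. Members went from 1 to 0 without the trend and with the block, with 0 to 1 over left-out arrays, and the wider lists from 1 to 0 without the trend, with 0 to 2. Dox against vehicle gave 3 genes, 1 with the mean of probes and 1 to 11 with arrays left out. Dox plus E2 against E2 gave 7, 3 without the trend and 2 to 9. The difference of the dox effects gave 0 (652 at an unadjusted p under 0.05) and 0 to 4. Dox over both slides gave 11, 7 without the trend, 7 with the block and 7 to 15. Where a count moved, the cause was not tested.

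No result changed direction past the threshold. In the 4 comparisons of dox, 0 members and 0 list genes passed under any alternative run. The Lpl difference ran from -1.02 to -0.57 for E2 against vehicle (past the threshold in 12 of 17 alternatives) and from -1.45 to -0.82 for dox plus E2 against dox (13 of 17). It was -0.57 and -0.82 on the authors' scaled values, and -0.75 and -1.04 with the replicate block. The members may have been chosen by these same values, so nothing is read from the counts of alternatives past the threshold. Over all genes, same-numbered arrays within a slide correlated at -0.0575 in slide 1, and at 0.0251 and -0.100 in slide 2. Probes at background (Cebpa, Adipoq, Cfd, Fabp4 and Cd36) give no level on these arrays, and groups of 2 or 3 arrays leave wide intervals for Lpl and Angptl4.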
